A study of Mus musculus with 36 samples.

Results

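The Toll-like receptors were taken as the 10 genes Tlr1, Tlr2, Tlr3, Tlr4, Tlr5, Tlr7, Tlr8, Tlr9, Tlr13 and Cd14, chosen by gene symbol from the 27562 genes with values. Cd14 is not itself a Toll-like receptor but the co-receptor that hands lipopolysaccharide to Tlr4. RNA-seq was made from AΦ and monocytes that were flow sorted from lungs of chimeric mice, with 36 libraries in 12 groups of 3. The hosts were male C57BL/6J (CD45.2) mice, conditioned by irradiation with the chest under lead and by busulfan, and all received marrow of the CD45.1 strain B6.SJL-Ptprca Pepcb/BoyJ. They breathed filtered air (FA) or concentrated ambient fine particles (PM2.5) for 4-weeks or 32-weeks. CD45.2 AΦ are host cells and are called tissue-resident (TR-AΦ), and CD45.1 AΦ are donor cells and are called bone marrow-derived (BM-AΦ). At 4-weeks only CD45.2 cells were sequenced, and at 32-weeks both. The paper took 3 mice from each exposure group at each time point. Libraries of different cell types and origins may therefore come from the same mice. The labels do not name the mouse, and the tests treat libraries as independent. The 32-weeks labels number the cells 1 and 2. A supplementary key calls AΦ numbered 1 BM-AΦ and those numbered 2 TR-AΦ, and monocytes were taken to follow it, so their origin rests on that reading. AΦ were gated on CD64, CD11c and CD11b and monocytes on Ly6G, MHC II, CD64 and CD11b, so those genes are not results here. The mice at 32-weeks were also older and further from the transplant, so age, time since transplant and length of exposure cannot be told apart. The paper does not say whether cells of the 2 time points were sorted or sequenced together, so handling may differ with time too.

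Toll-like receptors are pattern recognition receptors of the innate immune system. Tlr1, Tlr2, Tlr4, Tlr5 and Tlr6 act mostly at the cell surface, where Tlr2 with Tlr1 or Tlr6 binds bacterial lipopeptides, Tlr4 with Ly96 and Cd14 binds lipopolysaccharide and Tlr5 binds flagellin. Tlr3, Tlr7, Tlr8, Tlr9 and Tlr13 act in endosomes and sense nucleic acids, namely double-stranded RNA for Tlr3, single-stranded RNA and its breakdown products for Tlr7 and Tlr8, unmethylated CpG DNA for Tlr9 and bacterial ribosomal RNA for Tlr13. Unc93b1 carries the endosomal receptors out of the endoplasmic reticulum. Most of the receptors signal through Myd88, Tlr3 signals through Ticam1, and Tlr4 uses both.

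All 10 are protein-coding genes. In the mm10 (GRCm38) annotation Tlr1 lies on the minus strand at chr5:64924679-64933561, Tlr2 on the minus strand at chr3:83836272-83841767 and Tlr3 on the minus strand at chr8:45395665-45410760. Tlr3 overlaps the antisense gene Gm45542, and although the library kit keeps the strand per the labels, whether counting used it is not given in the sources used here, so that reads of the pair may not be told apart. Tlr4 lies on the plus strand at chr4:66827584-66930284, Tlr5 on the plus strand at chr1:182954788-182976044 and Tlr9 on the plus strand at chr9:106222598-106226883. The X chromosome holds Tlr7 at chrX:167304929-167330558 and Tlr8 at chrX:167242696-167264286, neighbours on the minus strand, and Tlr13 at chrX:106143229-106160493 on the plus strand. RefSeq promoter sequence on GRCm38.p6 was matched by symbol for 7 of the 10 members, and for 2 of these, Tlr2 and Tlr3, it holds no 120 bases outside the annotated gene. The 120 bases before the outermost start in either source are shown for the other 5, since 3 of them (Tlr1, Tlr9 and Tlr13) were far lower in AΦ than in monocytes, Tlr8 was level between them and Tlr5 moved with time in monocytes. Capitals mark matches, on either strand, to 5 short motifs: the PU.1 core GAGGAA, C/EBP TTNCNNAA, AP-1 TGANTCA, NF-κB GGGANTTTC and the interferon-stimulated response element (ISRE) GAAANNGAA.
Tlr1, chr5:64933564-64933683, minus strand: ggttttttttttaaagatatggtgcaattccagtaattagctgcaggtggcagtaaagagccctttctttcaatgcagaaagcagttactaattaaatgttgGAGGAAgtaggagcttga
Tlr5, chr1:182954668-182954787, plus strand: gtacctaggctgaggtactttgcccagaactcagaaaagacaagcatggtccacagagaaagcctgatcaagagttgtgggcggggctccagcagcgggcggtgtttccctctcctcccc
Tlr8, chrX:167264330-167264449, minus strand: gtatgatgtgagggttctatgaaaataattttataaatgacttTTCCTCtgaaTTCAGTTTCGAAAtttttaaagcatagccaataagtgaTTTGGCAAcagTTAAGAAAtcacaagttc
Tlr9, chr9:106222478-106222597, plus strand: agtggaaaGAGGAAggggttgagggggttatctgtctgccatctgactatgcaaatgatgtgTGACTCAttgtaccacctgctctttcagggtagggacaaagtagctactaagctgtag
Tlr13, chrX:106143084-106143203, plus strand: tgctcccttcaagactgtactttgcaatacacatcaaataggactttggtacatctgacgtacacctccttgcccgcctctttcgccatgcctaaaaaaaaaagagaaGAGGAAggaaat

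Distances are counted from that outermost start, which is the annotated start of Tlr5 and Tlr9 and a RefSeq start 2 bases outside it for Tlr1, 43 for Tlr8 and 25 for Tlr13. The PU.1 core was present in 4 of these 5 windows, beginning 18 bases upstream in Tlr1, 77 in Tlr8, 112 in Tlr9 and 12 in Tlr13. Of the 120-base windows before 32851 RefSeq starts, 11.6% hold it. The window of Tlr8 also had C/EBP matches, 62, 29 and 18 bases upstream, and an ISRE match 67 bases upstream that overlaps the first of them, and these motifs occur in 18% and 3.11% of all windows. Tlr9 had an AP-1 match 58 bases upstream, a motif held by 3.41% of windows. No window held the NF-κB motif, which 0.451% of all windows hold, and that of Tlr5 held none of the 5. A match is a description of the letters.

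Levels are given as FPKM, which the authors normalized for depth and transcript length, so that genes can be compared on this scale. Depth in reads is unknown, and library sums of FPKM ran from 1839577 to 3339020. Of the 9 AΦ markers, all had a mean of at least 1 FPKM in each AΦ population, and their summed FPKM was 6137 to 13531 in AΦ libraries and 247 to 1527 in monocyte libraries. The 9 monocyte markers summed to 290 to 735 in AΦ and 1525 to 4569 in monocytes. The 4-weeks monocyte libraries numbered 2 stood apart, since their 8 neutrophil markers summed to 396 under FA and 1142 under PM2.5 against 44.0 to 79.3 in the other 4, and their 7 interstitial macrophage markers to 4.43 and 4.60 against 167 to 423. In the 4-weeks TR-AΦ libraries numbered 2, neutrophil markers summed to 28.5 and 59.2 against 4.87 to 8.57 in the other 4, and monocyte markers to 703 and 731 against 341 to 460. In CD45.2 monocytes the 7 interstitial macrophage markers summed to 4.43 to 423 FPKM at 4-weeks and 915 to 3388 at 32-weeks, and in CD45.1 monocytes to 326 to 1050. Monocyte markers summed to 1525 to 3530 in the CD45.2 monocytes of 32-weeks. The part of interstitial macrophage transcripts in the comparisons that use these libraries was not tested. In bulk samples fewer cells of a type and less RNA per cell cannot be told apart.

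In AΦ the most abundant member was Tlr2 and the least abundant was Tlr1. Mean FPKM in TR-AΦ at 4-weeks (n = 6) was 480 for Tlr2, 356 for Cd14, 83.8 for Tlr8, 68.4 for Tlr7, 67.3 for Tlr4, 23.7 for Tlr13, 17.99 for Tlr5, 3.91 for Tlr3, 3.20 for Tlr9 and 0.614 for Tlr1. The same order of means held in TR-AΦ and BM-AΦ at 32-weeks, except that Tlr4 and Tlr7, whose ranges overlap, changed places. Tlr2 exceeded Cd14 in 6 of 6 TR-AΦ libraries at each time point and in 5 of 6 BM-AΦ libraries, although the ranges over mice overlapped. The range of Tlr8 overlapped that of its lower neighbour, and those of Tlr13 and Tlr5 overlapped too, in all 3 AΦ populations. The gap between Cd14 and Tlr8 exceeded the spread in each of the 3.

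In monocytes Cd14 came first and Tlr3 last in every population. At 4-weeks (n = 6) mean FPKM was 1074 for Cd14, 373 for Tlr2, 148 for Tlr13, 134 for Tlr7, 87.1 for Tlr8, 37.2 for Tlr9, 16.7 for Tlr4, 5.14 for Tlr1, 4.99 for Tlr5 and 0.947 for Tlr3. Cd14 did not overlap with Tlr2 in any of the 3 monocyte populations. Tlr13, Tlr7 and Tlr8 overlapped with their neighbours in this trio in each population, and their order by mean differed between populations. The endosomal receptors made up less of the receptor message in AΦ than in monocytes. Their share of the summed FPKM of the 9 receptors was at least 20.2% and at most 36.3% over AΦ libraries and at least 45.3% and at most 73.3% over monocyte libraries, given as a description with no test. Most of the surface sum was Tlr2, with means at 4-weeks of 480 out of 566 FPKM in TR-AΦ and 373 out of 400 in monocytes. The share therefore does not describe each member, and Tlr6 is not in the sums.

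**Figure D1:**
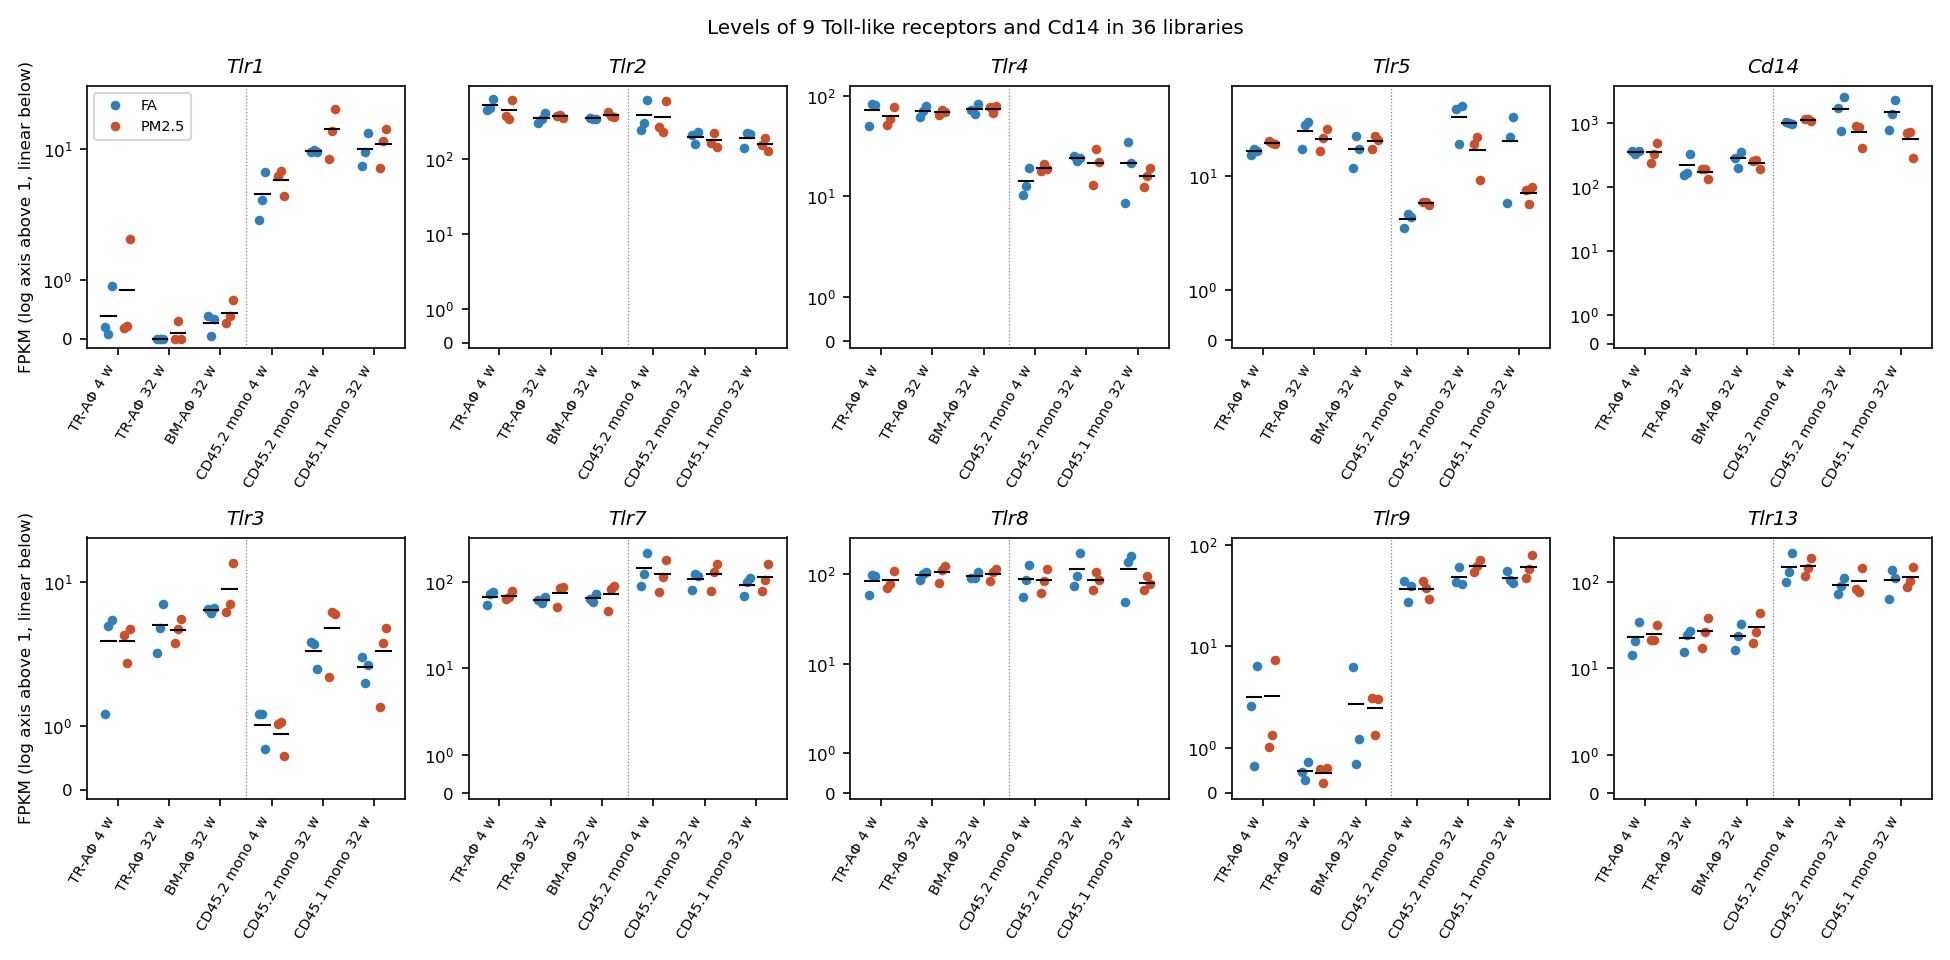
FPKM of each gene (vertical axis, logarithmic above 1 and linear below) in the 36 libraries, with a point per library coloured by FA or PM2.5, a bar at the mean of the 3 libraries of a group, and AΦ left of the dotted line and monocytes (mono) right of it at 4 or 32 weeks (w). Tlr1, Tlr9 and Tlr13 lie lower in AΦ than in monocytes, Tlr4 lies higher, and the ranges of Tlr8 overlap, 58.6 to 121 in AΦ and 47.9 to 169 in monocytes.

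The comparison of AΦ with monocytes of the same origin and time point asks how the receptor set differs between the 2 cell types. It was made with limma on log2(FPKM + 1), on which scale differences understate the change of low genes. At 4-weeks 8 of the 10 members differed, 3 higher in AΦ (Tlr3, Tlr4, Tlr5) and 5 lower (Tlr1, Tlr7, Tlr9, Tlr13, Cd14). Of all 13307 genes tested 48.2% differed, 22.6% higher and 25.5% lower. In CD45.2 cells at 32-weeks 7 of 10 members differed, 2 higher and 5 lower, against 47.3% of all genes, 23.6% higher and 23.7% lower. In CD45.1 cells 9 of 10 differed, 4 higher and 5 lower, against 50.9% of all genes, 27.1% higher and 23.8% lower. The median difference over the members was -0.45, -0.35 and -0.23 in the 3 comparisons, and over all genes it was -0.02, 0.00 and 0.03. With FPKM rescaled to a common sum (TPM), the median of all genes shifted up by 0.23, 0.15 and 0.34. Of the genes called, 47.0%, 49.9% and 53.2% were higher in AΦ, and after this rescaling 66.9%, 61.7% and 74.8%. No member that was called changed direction under it, while Tlr7 lost its call in all 3 comparisons (adjusted p = 0.10, 0.12 and 0.63 in limma). Without the 4-weeks libraries numbered 2, 8 members were again called in the first comparison, with Tlr2 in place of Tlr7, against 41.7% of all genes.

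Of the surface receptors, Tlr4 was the one higher in AΦ in all 3 comparisons with no overlap between cell types. Its FPKM had the lowest, median and highest values 50.04, 68.3 and 84.1 in TR-AΦ at 4-weeks and 10.2, 18.4 and 20.9 in monocytes. Every AΦ library exceeded every monocyte library. The mean was 4.04-fold higher (log2 difference 1.96, SE 0.22, adjusted p = 3.5e-08 in limma). At 32-weeks it was 3.07-fold higher in CD45.2 cells (1.61, adjusted p = 1.0e-06 in limma) and 3.99-fold higher in CD45.1 cells (2.06, adjusted p = 1.5e-08 in limma). Cd14, its co-receptor, went the other way. Cd14 had 237, 352 and 496 FPKM as lowest, median and highest in TR-AΦ at 4-weeks and 967, 1067 and 1178 in monocytes. Its mean was 3.01-fold lower in TR-AΦ at 4-weeks (-1.62, SE 0.30, adjusted p = 5.7e-05 in limma), 6.14-fold lower in TR-AΦ at 32-weeks (-2.43, adjusted p = 1.4e-07 in limma) and 3.99-fold lower in BM-AΦ (-1.74, adjusted p = 2.2e-05 in limma). Only in the CD45.1 cells did the ranges of Cd14 overlap, since 1 monocyte library held 291 FPKM. Ly96, the secreted partner of Tlr4, lay between 0 and 14.1 FPKM and passed the test in none of the 3 (adjusted p = 0.79, 0.14 and 0.11 in limma).

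Tlr2 and its heterodimer partners Tlr1 and Tlr6 differed in opposite directions. In the 6 TR-AΦ libraries at 32-weeks Tlr2 held 298, 364 and 406 FPKM as lowest, median and highest, against 146, 186 and 227 in CD45.2 monocytes, with no overlap. Its mean was 1.92-fold higher there (0.95, SE 0.22, adjusted p = 0.00059 in limma) and 2.09-fold higher in CD45.1 cells (1.09, adjusted p = 0.00013 in limma). At 4-weeks the ranges overlapped, 341 to 622 in TR-AΦ against 231.5 to 604 in monocytes, and the difference of 0.45 missed the threshold (95% interval 0.01 to 0.89, adjusted p = 0.089 in limma). The highest monocyte values, 604 and 587, belong to the libraries numbered 2, and without the 4-weeks libraries numbered 2 the difference was 0.65 (adjusted p = 0.0027 in limma). Leaving out either monocyte library alone also gave a call (0.64 and 0.65, adjusted p = 0.011 and 0.008 in limma). Tlr1 ran from 0.0881 to 2.08 FPKM in TR-AΦ at 4-weeks and from 2.86 to 6.76 in monocytes, a mean 8.38-fold lower (-1.99, SE 0.23, adjusted p = 3.6e-08 in limma). Its highest AΦ values, 0.902 and 2.08, were in the libraries numbered 2. At 32-weeks Tlr1 was listed at 0 in 5 of 6 TR-AΦ libraries and at 0.314 in the other, against 8.36, 9.61 and 19.9 as lowest, median and highest in CD45.2 monocytes (-3.55, adjusted p = 8.2e-13 in limma). In BM-AΦ it was 29.4-fold lower than in CD45.1 monocytes (-3.05, adjusted p = 1.5e-11 in limma). Tlr6 was also lower in AΦ, by mean FPKM 4.73 against 14.5 at 4-weeks (-1.39, adjusted p = 0.00011 in limma), 5.13 against 10.9 (-0.92, adjusted p = 0.0067 in limma) and 5.03 against 13.1 (-1.18, adjusted p = 0.00068 in limma).

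Tlr5, the flagellin receptor, differed by cell type at 4-weeks, while in CD45.2 cells at 32-weeks no difference was found. The CD45.2 monocytes of 32-weeks held more interstitial macrophage transcripts, as given above, and their part was not tested. At 4-weeks Tlr5 held 15.3, 18.2 and 20.2 FPKM as lowest, median and highest in TR-AΦ and 3.51, 5.09 and 5.95 in monocytes, without overlap. The mean was 3.61-fold higher in AΦ (1.68, SE 0.27, adjusted p = 9.1e-06 in limma). At 32-weeks the CD45.2 ranges overlapped, with 16.6 to 29.9 in TR-AΦ and 9.29 to 41.1 in monocytes, and the difference was 0.02 (95% interval -0.54 to 0.58, adjusted p = 0.99 in limma). In CD45.1 cells AΦ held 11.7 to 22.5 FPKM and monocytes 5.66 to 33.0. The difference of 0.71 (adjusted p = 0.032 in limma) was not matched by the exact permutation test on log2(FPKM + 1) (p = 0.128). That call was lost in 6 of 12 fits that left out 1 library (0.36 to 0.69, adjusted p = 0.054 to 0.16 in limma), with the lowest value without the CD45.1 FA monocyte library numbered 0.

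Among the endosomal receptors Tlr9 and Tlr13 were lower in AΦ in all 3 comparisons with no overlap. Tlr9 had 0.584, 1.95 and 7.28 FPKM as lowest, median and highest in TR-AΦ at 4-weeks, 0.217, 0.493 and 0.677 in TR-AΦ at 32-weeks and 0.638, 2.17 and 6.20 in BM-AΦ. In monocytes it never fell below 27.6, and the populations had medians of 38.4, 57.8 and 51.1. Its mean was 11.6-fold lower at 4-weeks (-3.45, SE 0.34, adjusted p = 2.6e-09 in limma), 123-fold lower in CD45.2 cells at 32-weeks (-5.27, adjusted p = 9.7e-13 in limma) and 21.1-fold lower in CD45.1 cells (-4.10, adjusted p = 1.2e-10 in limma). The AΦ libraries with the most Tlr9 were the 4-weeks libraries numbered 2 (6.42 under FA and 7.28 under PM2.5) and the BM-AΦ FA library numbered 0 (6.20). These 3 libraries had summed monocyte marker levels of 703, 731 and 653 FPKM, within an AΦ range of 290 to 735, and the part of monocyte transcripts in the AΦ level of Tlr9 was not tested. Tlr13 held 14.2, 21.3 and 33.8 FPKM as lowest, median and highest in TR-AΦ at 4-weeks and 98.3, 137 and 215 in monocytes. It was 6.24-fold lower in AΦ at 4-weeks (-2.60, SE 0.27, adjusted p = 5.0e-09 in limma), 3.89-fold lower in CD45.2 cells at 32-weeks (-1.93, adjusted p = 9.2e-07 in limma) and 4.03-fold lower in CD45.1 cells (-1.98, adjusted p = 5.7e-07 in limma).

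Tlr7 and Tlr8, the neighbouring X-linked receptors for single-stranded RNA, did not share a pattern. Tlr7 held 53.9, 69.1 and 78.3 FPKM as lowest, median and highest in TR-AΦ at 4-weeks and 76.9, 120 and 217 in monocytes, so the ranges touched. It was lower in AΦ by 0.88 on the log2 scale (1.96-fold, adjusted p = 0.0032 in limma), by 0.72 in CD45.2 cells at 32-weeks (1.67-fold, adjusted p = 0.015 in limma) and by 0.57 in CD45.1 cells (1.51-fold, adjusted p = 0.0498 in limma). The last of these calls was lost in 8 of 12 fits that left out 1 library (-0.61 to -0.42, adjusted p = 0.054 to 0.16 in limma). The second was lost without the TR-AΦ PM2.5 library numbered 0 (-0.59, adjusted p = 0.053 in limma) and without the CD45.2 PM2.5 monocyte library numbered 2 (-0.60, adjusted p = 0.0501 in limma). Without the 4-weeks libraries numbered 2 the first was -0.65 (adjusted p = 0.052 in limma). Tlr8 had means of 83.8 in TR-AΦ and 87.1 in monocytes at 4-weeks, 99.6 and 98.6 in CD45.2 cells at 32-weeks and 96.8 and 96.3 in CD45.1 cells. Its differences were -0.03 (95% interval -0.55 to 0.49), 0.07 (-0.45 to 0.59) and 0.12 (-0.40 to 0.63), so that a change of up to about 0.6 in either direction lies within the intervals.

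Tlr3, the receptor for double-stranded RNA, was low in both cell types. In TR-AΦ at 4-weeks it held 1.22, 4.53 and 5.44 FPKM as lowest, median and highest against 0.523, 1.05 and 1.21 in monocytes, which just did not overlap. Its mean was 4.13-fold higher in AΦ (1.26, SE 0.26, adjusted p = 0.00021 in limma). It was 2.64-fold higher in CD45.1 AΦ at 32-weeks (1.16, adjusted p = 0.00054 in limma), while in CD45.2 cells at 32-weeks the means of 4.86 and 4.08 overlapped in range (0.24, 95% interval -0.29 to 0.78, adjusted p = 0.47 in limma).

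**Figure D2:**
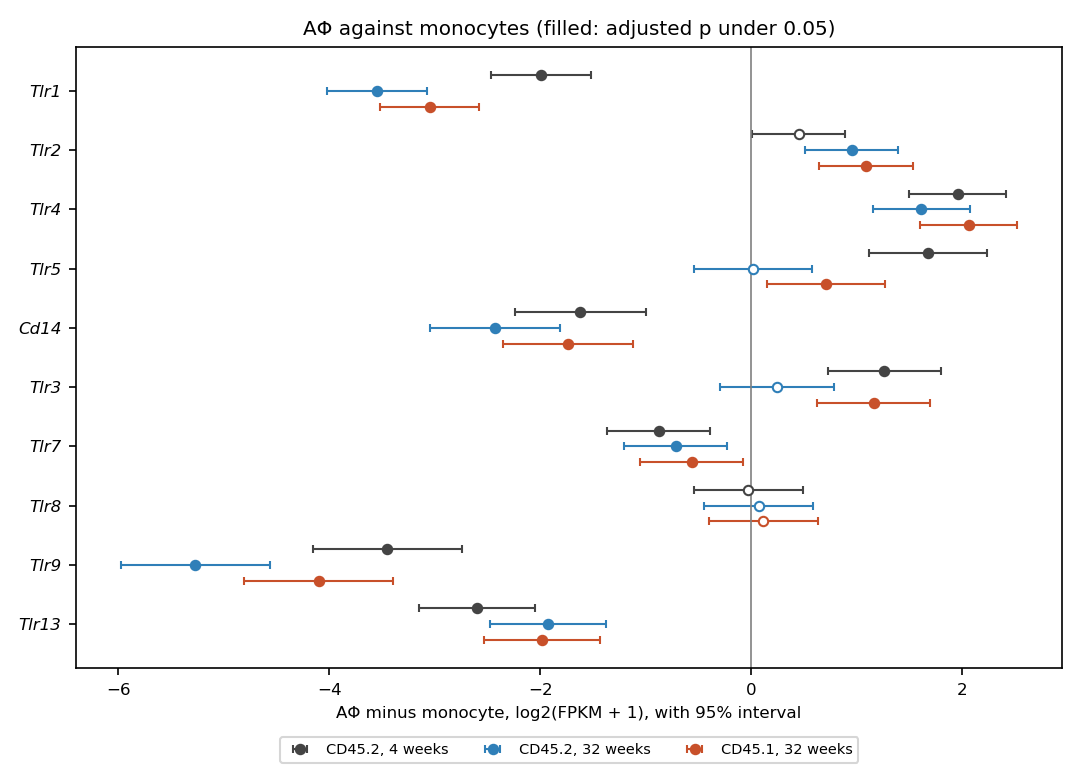
Difference between AΦ and monocytes on the log2(FPKM + 1) scale (horizontal axis) for the 10 genes in CD45.2 cells at 4-weeks, CD45.2 cells at 32-weeks and CD45.1 cells at 32-weeks, with bars for the 95% interval from limma and filled points for an adjusted p under 0.05. Tlr4 lies right of 0 (higher in AΦ) and Tlr1, Tlr9, Tlr13 and Cd14 lie left of 0 in all 3, and the farthest point is Tlr9 in CD45.2 cells at 32-weeks at -5.27.

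The other genes of the pathway were read from 8 lists with 89 genes, of which 81 were tested. At 4-weeks 13 were higher and 45 lower in AΦ, in CD45.2 cells at 32-weeks 11 and 40, and in CD45.1 cells 12 and 37. Over all genes 22.6%, 23.6% and 27.1% were higher in AΦ and 25.5%, 23.7% and 23.8% lower. These shares are the background for the counts of each list that follow, except for the counts after TPM rescaling. The median differences of the pathway genes were -0.61, -0.52 and -0.42, beside medians of -0.02, 0.00 and 0.03 over all genes. After TPM rescaling the pathway counts were 14 higher and 33 lower, 13 and 31, and 23 and 25. Under that rescaling 6405, 6219 and 7380 of all genes were called, of which 66.9%, 61.7% and 74.8% were higher in AΦ. Those values are the background for the rescaled counts of each list. Unc93b1, the carrier of the endosomal receptors, was lower in AΦ in all 3, with 38.0 to 61.3 FPKM in AΦ libraries and 80.2 to 175 in monocyte libraries. Its differences were -1.15 (adjusted p = 9.3e-09), -1.54 (adjusted p = 4.5e-11) and -1.32 (adjusted p = 8.7e-10) in limma. Ctsk, a cathepsin, went the other way, with mean FPKM 78.6 in TR-AΦ and 0.922 in monocytes at 4-weeks (5.40, adjusted p = 2.1e-11 in limma). Of the 12 genes for receptor folding, trafficking and cleavage, 4, 3 and 4 were higher and 5, 4 and 3 lower in the 3 comparisons, or 4, 4 and 7 higher and 3, 2 and 2 lower after TPM rescaling.

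Of the 7 ligand delivery genes and co-receptors tested 1 was higher and 3 were lower in each comparison, or 1, 1 and 2 higher and 2, 3 and 1 lower after TPM rescaling. Ly86, which pairs with the Tlr4 relative Cd180, had mean FPKM 12.1 in TR-AΦ and 76.9 in monocytes at 4-weeks (-2.77, adjusted p = 1.3e-08 in limma), and Cd180 itself 9.84 and 65.4 (-2.57, adjusted p = 8.8e-06 in limma). The adaptors Myd88 and Ticam1 passed the test in none of the 3 (adjusted p = 0.79, 0.90 and 0.83 for Myd88 and 0.58, 0.14 and 0.15 for Ticam1 in limma), with Myd88 at 62.8 to 96.5 FPKM in AΦ and 45.7 to 121 in monocytes. Another adaptor, Pik3ap1, was higher in AΦ, 154 against 71.3 at 4-weeks (1.14, adjusted p = 2.0e-06 in limma). Of 17 kinases and ligases 1, 2 and 2 were higher and 9, 7 and 7 lower, or 1, 2 and 5 higher and 5, 5 and 4 lower after TPM rescaling. Tab2, which links Traf6 to the kinase Map3k7, was at 25.6 against 94.7 at 4-weeks (-1.85, adjusted p = 9.1e-12 in limma). Of 9 transcription factors 1, 1 and 0 were higher and 6, 7 and 4 lower, or 1, 1 and 1 higher and 5, 4 and 3 lower after TPM rescaling. Irf7, which drives type I interferon genes after Tlr7 and Tlr9 ligation, was at 3.09 against 72.6 (-4.41, adjusted p = 1.3e-12 in limma), and Irf5 at 24.5 against 120 (-2.28, adjusted p = 3.7e-13 in limma).

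None of the 12 inhibitors was higher in AΦ, and 9, 7 and 9 were lower, although after TPM rescaling 0, 1 and 2 were higher and 5, 6 and 5 lower. Irak3, a kinase-dead relative of the Irak kinases, was at 14.7 against 56.9 at 4-weeks (-1.84, adjusted p = 2.5e-09 in limma). The 18 genes that Toll-like receptor ligation induces were mixed, with 4, 2 and 3 higher and 11, 10 and 9 lower. At 4-weeks Ptgs2, the inducible cyclooxygenase, was at 10.9 against 270 (-5.66, adjusted p = 1.1e-07 in limma) and Il1b at 305 against 2419 (-3.53, adjusted p = 6.9e-05 in limma). Il1a was at 212 against 18.9 (3.17, adjusted p = 4.3e-05 in limma) and Tnf at 568 against 244 (1.30, adjusted p = 4.0e-05 in limma). Tlr11 and Tlr12 had means under 1 FPKM over all libraries and were not tested.

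**Figure D3:**
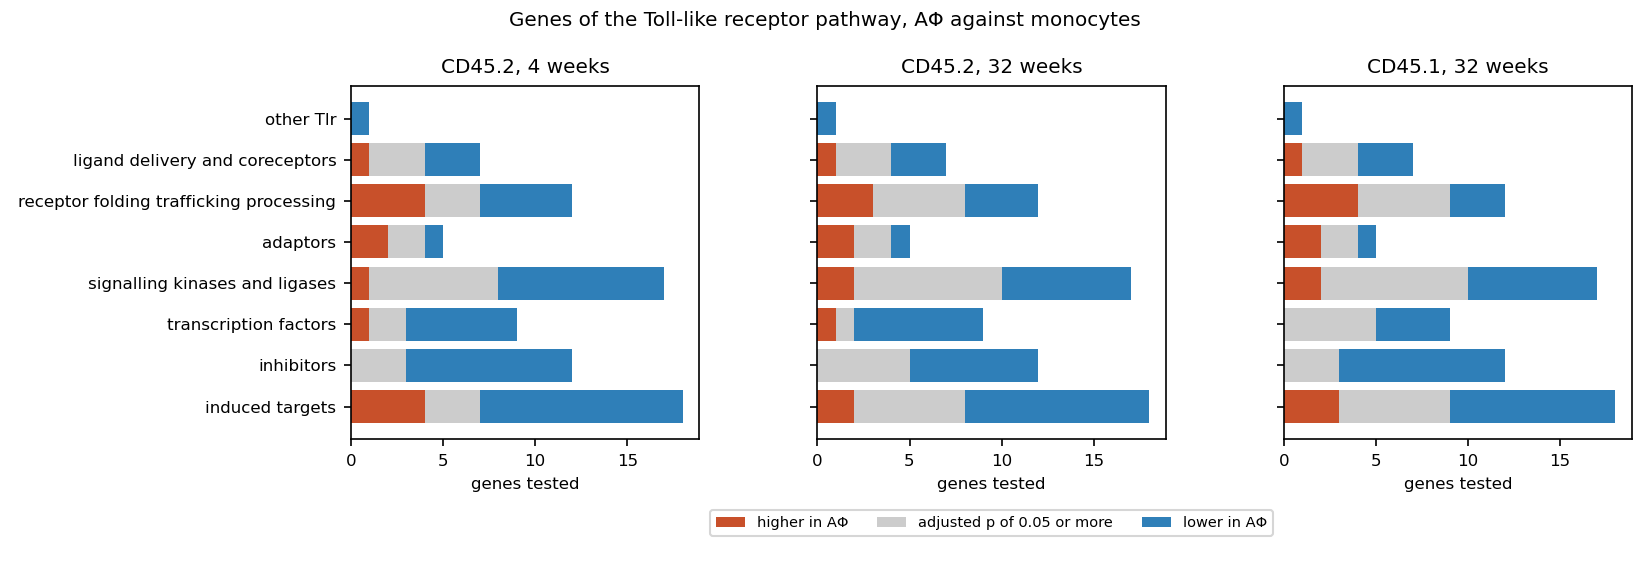
Number of genes tested (horizontal axis) in each of 8 lists of the Toll-like receptor pathway that were higher in AΦ, did not pass, or were lower in AΦ at an adjusted p under 0.05 in limma, for the 3 cell type comparisons. Lower calls outnumber higher calls among kinases and ligases (9 to 1, 7 to 2 and 7 to 2), although after TPM rescaling the last was 4 lower and 5 higher, and none of the 12 inhibitors is higher, although after it 0, 1 and 2 are.

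The difference between the cell types was itself compared between the time points in CD45.2 cells. It differed for 3 of 10 members, against 7.88% of all genes. The AΦ minus monocyte difference was lower at 32-weeks for Tlr1 (interaction -1.55, SE 0.32, adjusted p = 0.0026 in limma), Tlr5 (-1.66, SE 0.38, adjusted p = 0.0063 in limma) and Tlr9 (-1.82, SE 0.49, adjusted p = 0.018 in limma). For Tlr1 and Tlr9 a deficit in AΦ was deeper at 32-weeks, while for Tlr5 the excess in AΦ at 4-weeks was not found at 32-weeks. Without the 4-weeks libraries numbered 2 the value for Tlr9 was -1.17 (adjusted p = 0.12 in limma). Tlr3 had -1.02 (95% interval -1.78 to -0.26, adjusted p = 0.094 in limma), and passed without the 4-weeks TR-AΦ FA library numbered 0 (-1.27, adjusted p = 0.018 in limma) or the 32-weeks CD45.2 PM2.5 monocyte library numbered 0 (-1.21, adjusted p = 0.033 in limma). Among all genes called, 44.8% had a positive interaction, and 19.6% after TPM rescaling, which shifted the median of all genes by -0.11. The same difference at 32-weeks was not found to vary with origin for any member (0 of 10, against 1.08% of all genes). There the members' interactions lay between -0.05 and 1.17 and the lowest adjusted p was 0.33 in limma. With no adjustment 2 members, Tlr3 and Tlr9, were under 0.05 in limma, beside 1370 of 13307 genes.

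No receptor was found to differ between BM-AΦ and TR-AΦ at 32-weeks. None of the 9 members tested passed, against 0.316% of 12665 genes. With no adjustment 1 of them, Tlr9, was under 0.05 in limma, beside 944 of all genes. Tlr1, under a mean of 1 FPKM in AΦ, was not tested. The widest gap was in Tlr9, with 0.461, 0.279 and 0.677 under FA and 0.525, 0.217 and 0.548 under PM2.5 in TR-AΦ. In BM-AΦ it was 6.20, 0.638 and 1.21 under FA and 3.11, 1.33 and 2.997 under PM2.5. The values barely overlap, and the mean was 5.72-fold higher in BM-AΦ (log2 difference 1.13, SE 0.45, adjusted p = 0.53 in limma, exact permutation p = 0.0043 unadjusted). Monocyte markers were also higher in BM-AΦ, at 417 to 735 against 290 to 546 FPKM in TR-AΦ. The 4 plasmacytoid dendritic cell markers in the table summed to 5.17 to 8.39 in BM-AΦ and 2.93 to 4.60 in TR-AΦ with no overlap, most of it Tcf4, while Siglech was at 0 to 1.14 in BM-AΦ. All 7 conventional dendritic cell markers had a mean of at least 1 FPKM in BM-AΦ and 2 did in TR-AΦ, with Flt3 at means of 1.71 and 0.0566, Xcr1 at 1.48 and 0.0583 and Ccr7 at 5.40 and 0.251, though the sums overlapped (134 to 219.6 and 131 to 175). The part of these cells in the Tlr9 and Tlr3 values was not tested. Tlr3 means were 7.72 in BM-AΦ and 4.86 in TR-AΦ (0.55, 95% interval -0.02 to 1.12, adjusted p = 0.69 in limma). Cd14 means were 261 and 196 (0.44, 95% interval -0.04 to 0.93, adjusted p = 0.73 in limma). For Tlr2 the interval was -0.27 to 0.32, for Tlr4 -0.20 to 0.39, for Tlr7 -0.38 to 0.37 and for Tlr8 -0.37 to 0.31. Tlr5 had -0.29 (95% interval -0.64 to 0.06) and Tlr13 0.10 (-0.47 to 0.67).

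Between 4-weeks and 32-weeks several receptors moved in monocytes, Tlr5 by the widest margin. In CD45.2 monocytes 5 of 10 members differed, 4 higher and 1 lower at 32-weeks, against 14.9% of 12856 genes, 7.06% higher and 7.83% lower. Among all genes called 47.4% were higher, and 68.3% after TPM rescaling, which moved the median of all genes by 0.10. The members' median was 0.30 and that of all genes was -0.05. Tlr5 held 3.51, 4.63 and 4.34 FPKM under FA and 5.95, 5.95 and 5.56 under PM2.5 at 4-weeks. At 32-weeks it held 39.1, 19.0 and 41.1 under FA and 19.0, 22.1 and 9.29 under PM2.5. Every 32-weeks library was above every 4-weeks library, and the mean was 4.998-fold higher (1.98, SE 0.34, adjusted p = 0.0015 in limma). Tlr3 lay between 0.523 and 1.21 FPKM at 4-weeks and between 2.19 and 6.25 at 32-weeks, and its mean rose 4.31-fold (1.33, SE 0.25, adjusted p = 0.0026 in limma). Tlr1 lay between 2.86 and 6.76 at 4-weeks and between 8.36 and 19.9 at 32-weeks, and its mean rose 2.28-fold (1.04, SE 0.23, adjusted p = 0.0068 in limma). These 3 calls held in every fit that left out 1 library.

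The other calls in monocytes were less steady. Tlr2 held 244, 303 and 604 under FA and 267, 231.5 and 587 under PM2.5 at 4-weeks, and 207, 159 and 227 under FA and 164, 221 and 146 under PM2.5 at 32-weeks. It was 1.99-fold lower at 32-weeks with no overlap (-0.89, SE 0.27, adjusted p = 0.036 in limma), and without the 4-weeks libraries numbered 2, which hold the values 604 and 587, the difference was -0.49 (adjusted p = 0.14 in limma). Its call was lost in 6 of 12 fits that left out 1 library (-0.91 to -0.68, adjusted p = 0.063 to 0.088 in limma). Tlr9 was 1.499-fold higher by mean, 55.7 against 37.2 FPKM, with overlapping ranges (0.57, SE 0.17, adjusted p = 0.038 in limma), and its call was lost in 8 of 12 such fits (0.47 to 0.60, adjusted p = 0.056 to 0.099 in limma). Tlr13 (-0.62, adjusted p = 0.13), Tlr4 (0.43, adjusted p = 0.36), Tlr7 (-0.18, adjusted p = 0.74), Tlr8 (0.17, adjusted p = 0.78) and Cd14 (-0.08, adjusted p = 0.92) did not pass in limma. The 7 interstitial macrophage markers summed to 4.43 to 423 FPKM in CD45.2 monocytes at 4-weeks and 915 to 3388 at 32-weeks, and monocyte markers to 3390 to 4569 and 1525 to 3530. The 4 plasmacytoid dendritic cell markers, from a cell type rich in Tlr9, summed to 12.3 to 15.2 at 4-weeks and 23.5 to 43.6 at 32-weeks with no overlap, and Siglech among them was at 0 to 1.71 and 4.65 to 9.85. Their part in the receptor changes was not tested. Without the 2 CD45.2 libraries that held the most interstitial macrophage transcripts 3 members were called, Tlr1, Tlr3 and Tlr5, against 7.71% of all genes.

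In TR-AΦ 1 of 9 members differed between 32-weeks and 4-weeks, against 5.91% of 12665 genes. The median was 0.05 over the members and 0.03 over all genes. Of the genes called 43.3% were higher, and 19.5% after TPM rescaling. The member was Cd14, with 369, 335 and 373 FPKM under FA and 237, 327 and 496 under PM2.5 at 4-weeks. At 32-weeks it held 154, 170 and 335 under FA and 192, 194 and 134 under PM2.5. The ranges overlap through 1 library at each time point, and the mean was 1.81-fold lower at 32-weeks (-0.89, SE 0.23, adjusted p = 0.036 in limma). That call was lost in 10 of 12 fits that left out 1 library (-0.93 to -0.75, adjusted p = 0.0503 to 0.078 in limma) and with TPM rescaling (adjusted p = 0.073 in limma). Tlr9 fell short of the threshold, with a mean of 3.20 at 4-weeks and 0.451 at 32-weeks (-1.25, SE 0.45, adjusted p = 0.12 in limma). Tlr2 means were 480 and 360 (-0.39, SE 0.14, adjusted p = 0.12 in limma). Tlr4, Tlr7 and Tlr13 had differences of 0.08, -0.02 and 0.05. Within FA alone 0 of 9 members and 0.782% of all genes passed, and within PM2.5 alone 0 of 9 and 1.05%, where Cd14 differed by -0.79 and -0.98 (adjusted p = 0.32 and 0.16 in limma). With no adjustment 3 members under FA and 1 under PM2.5 were below 0.05 in limma, beside 1535 and 1928 of the 12665 genes.

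**Figure D4:**
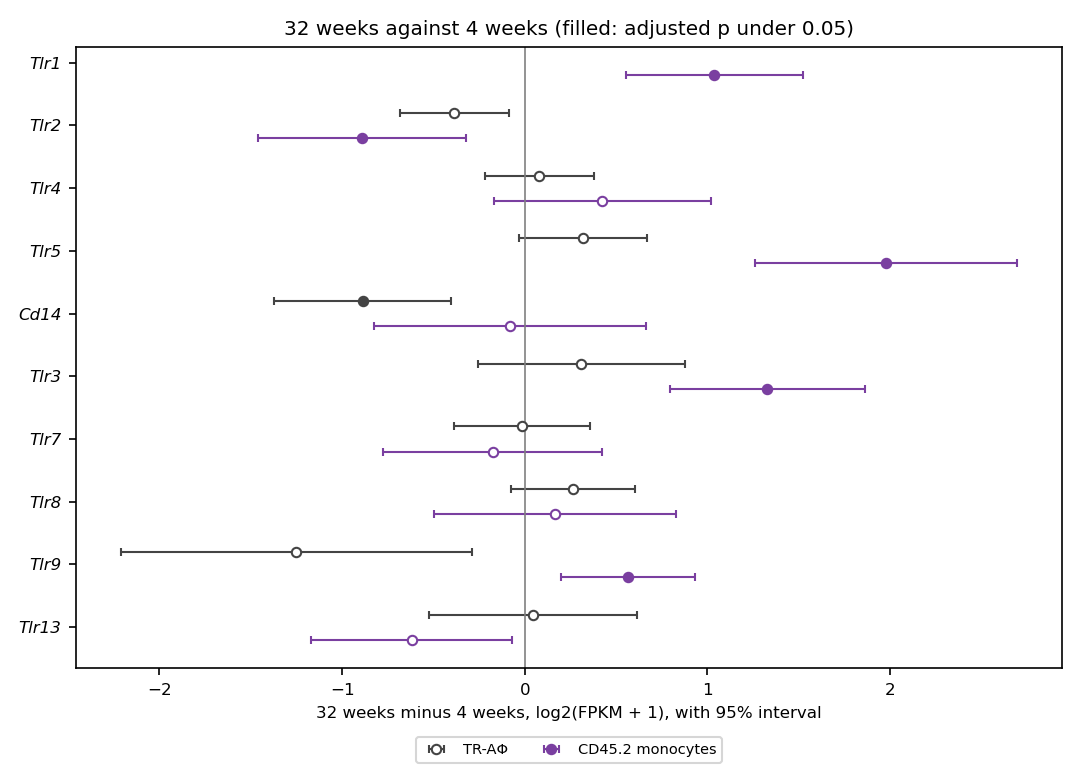
Difference between 32-weeks and 4-weeks on the log2(FPKM + 1) scale (horizontal axis) in TR-AΦ and in CD45.2 monocytes, with bars for the 95% interval from limma and filled points for an adjusted p under 0.05; Tlr1 was not tested in TR-AΦ. In monocytes Tlr5, Tlr3 and Tlr1 lie right of 0 (higher at 32-weeks) at 1.98, 1.33 and 1.04, and in TR-AΦ only Cd14, at -0.89, is filled.

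Of 21 listed genes that Toll-like receptors induce, 16 were tested in TR-AΦ and 18 in monocytes. In TR-AΦ 11 of 16 were lower at 32-weeks, 0 were higher and 5 did not pass, where 3.35% of all genes were lower. The median difference was -2.21 beside 0.03 over all genes, and TPM rescaling also gave 11 lower. Under that rescaling 344 of all genes were called in TR-AΦ, of which 19.5% were higher. Cxcl10, a chemokine induced by interferon, was at 1.67 FPKM at 32-weeks and 129 at 4-weeks (-5.60, adjusted p = 2.0e-06 in limma). Tnf was at 67.4 and 568 (-3.07, adjusted p = 4.3e-08 in limma), and Cxcl1 at 15.3 and 184 (-3.84, adjusted p = 0.00015 in limma). The inhibitors Nfkbia and Tnfaip3, themselves induced by NF-κB, were at 196 and 677 (-1.83, adjusted p = 1.1e-05 in limma) and at 69.5 and 369 (-2.44, adjusted p = 5.2e-05 in limma). Over all 77 pathway genes tested 3 were higher and 19 lower, or 0 higher and 17 lower after TPM rescaling and 1 and 21 after quantile normalization. In CD45.2 monocytes 12 of 18 induced genes were lower, 0 were higher and 6 did not pass, where 7.83% of all genes were lower. The median was -1.49 beside -0.05 over all genes, and TPM rescaling gave 9 lower. Under that rescaling 1638 of all genes were called in monocytes, of which 68.3% were higher. Acod1, which makes itaconate, was at 0.841 and 80.8 (-5.04, adjusted p = 4.9e-05 in limma) and Il6 at 13.9 and 103 (-3.02, adjusted p = 0.0012 in limma). Over all 84 pathway genes tested 5 were higher and 27 lower, or 6 and 19 after TPM rescaling. Unc93b1 was among the higher genes (147 against 105, 0.49, adjusted p = 0.015 in limma). Without the 4-weeks libraries numbered 2, the lower induced genes numbered 9 in TR-AΦ and 8 in monocytes. The shares of all genes given above are of the full fits and are not the background for these 2 counts.

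Between the CD45.1 and the CD45.2 monocytes of 32-weeks no difference passed for the 10 members, against 0.669% of all genes. With no adjustment 1 member was under 0.05 in limma, beside 1233 of 12856 genes. That member was Tlr5. It held 5.73, 22.1 and 33.0 FPKM under FA and 7.57, 5.66 and 7.98 under PM2.5 in CD45.1 monocytes, beside 39.1, 19.0 and 41.1 and 19.0, 22.1 and 9.29 in CD45.2 monocytes (-0.98, SE 0.34, adjusted p = 0.28 in limma). Interstitial macrophage markers summed to 326 to 1050 in CD45.1 monocytes and 915 to 3388 in CD45.2 monocytes, and their part in this gap was not tested. The other 9 differed by -0.36 to 0.16.

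PM2.5 against FA asks what the particles changed, and no member passed the test in any of the 6 populations. In TR-AΦ at 4-weeks the 9 members tested differed by -0.27 to 0.24, where 0.0079% of all genes passed. In TR-AΦ at 32-weeks they differed by -0.27 to 0.25, where 0% of all genes passed in limma and 396 genes were under an unadjusted 0.05. In BM-AΦ they differed by -0.21 to 0.36, where 0.0158% of genes passed. No member in AΦ was under an unadjusted 0.05 in limma, where 372, 396 and 259 genes were in these 3 comparisons. The half-width of the 95% interval had a median of 0.53 over the members in AΦ and 0.82 in monocytes. With 3 mice a group, differences smaller than these would mostly not pass even without adjustment. The intervals are not adjusted for the number of genes, so larger differences can also miss the threshold, as Cd14 and Tlr5 did in monocytes at 32-weeks. An exact permutation test of 3 against 3 cannot go below p = 0.1.

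The members whose 3 PM2.5 libraries lay all on 1 side of the 3 FA libraries were few in AΦ. In TR-AΦ at 4-weeks this was 1 of 9, against 5.82% of all genes, namely Tlr5 with 20.2, 19.6 and 18.9 FPKM under PM2.5 and 15.3, 17.4 and 16.5 under FA. In TR-AΦ at 32-weeks it was 0 of 9, against 5.98%. In BM-AΦ it was 1 of 9, against 6.44%, namely Tlr2 with 416, 377 and 359 under PM2.5 and 350, 343 and 343 under FA. Both differences were small, 0.24 and 0.15 on the log2 scale. The exposure effect was not found to depend on time in TR-AΦ (0 of 9 members, 0.0079% of genes) or on origin at 32-weeks (0 of 9, 0.0158%). No member was under an unadjusted 0.05 in these 2 interactions in limma, where 380 and 240 genes were.

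In monocytes the larger exposure differences were in Cd14 and Tlr5 at 32-weeks, and none passed the adjustment. Cd14 held 1714, 767 and 2560 FPKM under FA and 906, 879 and 405 under PM2.5 in CD45.2 monocytes. In CD45.1 monocytes it held 791, 1398 and 2334 under FA and 709, 728 and 291 under PM2.5. All 3 PM2.5 libraries lay below the 3 FA libraries in CD45.1 but not in CD45.2 monocytes, where 1 FA library held 767. The differences were -1.13 (95% interval -2.18 to -0.07, adjusted p = 1 in limma) and -1.37 (95% interval -2.42 to -0.31, adjusted p = 0.95 in limma). The Tlr5 values given above differed by -0.94 in CD45.2 (adjusted p = 1 in limma) and by -1.12 in CD45.1 monocytes (adjusted p = 0.95 in limma). At 4-weeks both genes lay the other way in the CD45.2 monocytes, without overlap. Cd14 held 1164, 1178 and 1080 under PM2.5 and 1055, 998 and 967 under FA (0.18), and Tlr5 5.95, 5.95 and 5.56 and 3.51, 4.63 and 4.34 (0.41). Non-overlapping members numbered 2 of 10 at 4-weeks, against 6.57% of all genes, 1 of 10 in CD45.1 monocytes, against 8.89%, and 0 of 10 in CD45.2 monocytes at 32-weeks, against 6.39%. With adjustment 0.00778%, 0% and 0% of all genes passed in limma in these 3 comparisons, and with none 272, 609 and 547 genes were under 0.05, of which 0, 2 and 1 were members.

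**Figure D5:**
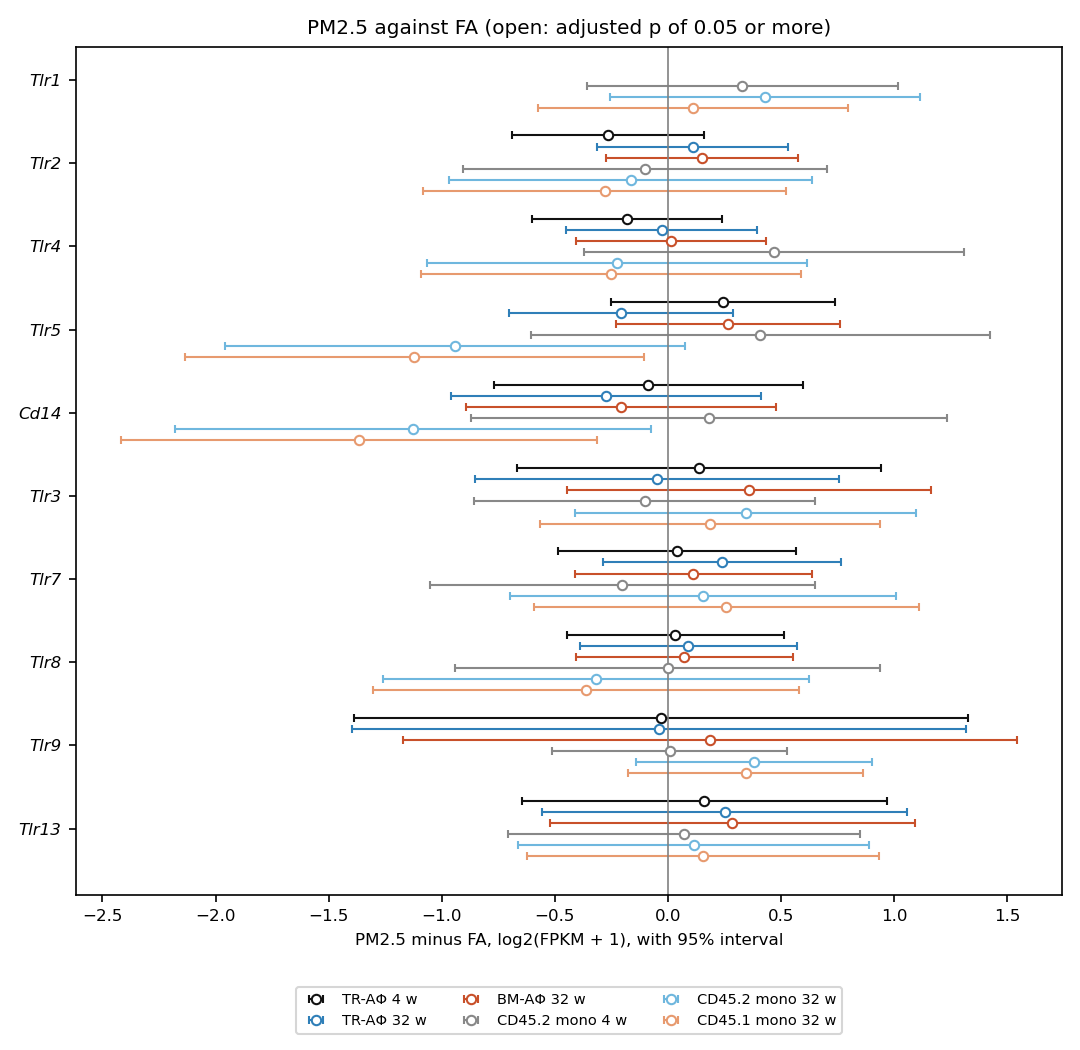
Difference between PM2.5 and FA on the log2(FPKM + 1) scale (horizontal axis) for each gene in the 6 populations, with bars for the 95% interval from limma and open points for an adjusted p of 0.05 or more; Tlr1 was not tested in AΦ. Every point is open, and the points farthest from 0 are Cd14 at 32-weeks, at -1.37 in CD45.1 and -1.13 in CD45.2 monocytes, and Tlr5 in CD45.1 monocytes at -1.12.

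The genes whose levels varied most like each member were sought over the 18 libraries of the cell type in which that member was higher, as a description of libraries that share scaling and composition. Tlr13 had the highest likeness, with Mfsd14b (Pearson r = 0.959), Rab32 (0.954) and Pigm (0.948) over monocytes. Tlr8 was most like Tbc1d15 (0.938), Map3k2 (0.937) and Rab18 (0.936), and Tlr7 most like Syncrip (0.931), Pafah1b1 (0.928) and Gmfb (0.924), also over monocytes. Tlr9 over monocytes was most like Ccna2 (0.919), Hist1h1b (0.894) and Zfp282 (0.893), and Cd14 most like Rabgef1 (0.925), Rab20 (0.904) and Gab2 (0.901). Tlr1 was most like Zc4h2 (0.862), Lpcat1 (0.859) and Snx5 (0.858). Over AΦ, Tlr2 was most like Tnfrsf1b (0.890), Spata13 (0.870) and Ist1 (0.867), and Tlr3 most like Cmtm6 (0.915), Anp32b (0.897) and Gid8 (0.882). Tlr4 was most like Gm9892 (0.860), Nfatc3 (0.842) and Atp6ap2 (0.839), and Tlr5 most like Kat7 (0.821), Ccnd2 (0.815) and Eny2 (0.803). No member was among the 3 genes most like another.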

How the data were processed

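RNA-seq values of AΦ and monocytes from 36 sorted samples were used as deposited. The authors trimmed reads with TrimGalore, aligned them to mm10 with STAR and deposited FPKM from Cufflinks. The authors' own Cuffdiff comparisons were not used. No counts were analysed here, so the depth is unknown and the number of mice sets the precision. Values of exactly 0 can be failed estimates and are described as listed at 0.

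Tests were run in limma 3.58.1 (R 4.3.3) on log2(FPKM + 1), with 1 mean per group and a moderated variance with a trend, separately for AΦ, monocytes and all libraries. A gene needed a mean of 1 FPKM or more in the libraries fitted (12665, 12856 and 13307 genes), Benjamini-Hochberg adjustment ran over all of them in each of 19 comparisons, and the threshold was 0.05. Exact permutation tests on log2(FPKM + 1) were two-sided and unadjusted. Time and cell type comparisons average FA and PM2.5. Monocytes against AΦ, time and exposure comparisons share libraries. The steps were tested on simulated data. The members and the lists were chosen with earlier results of these data known. Of each list up to 3 genes per direction with the largest difference, an adjusted p under 0.05 and no overlap could be named, besides the partners Ly96, Unc93b1, Myd88, Ticam1 and Tlr6, and examples were taken from these. Alternatives were a pseudocount of 0.1, no filter, TPM scaling, quantile normalization, a fit of only the groups compared, a replicate block and leaving out each library. Leaving out the 4-weeks libraries numbered 2, leaving out the 2 CD45.2 monocyte libraries highest in interstitial macrophage transcripts and a threshold of 0.01 were added after seeing the data. The p-values reflect the spread between the sequenced libraries, which were treated as independent although those of different cell types or origins may share mice. Plots used Python 3.11.15 and matplotlib 3.10.9.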

Additional observations from a re-analysis of the deposited data

Results flagged for a closer look

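The difference between AΦ and CD45.2 monocytes was not the same at 32-weeks as at 4-weeks for 3 members, by the interaction term in limma. For Tlr1 the interaction was -1.55 (adjusted p = 0.0026 in limma), for Tlr5 -1.66 (adjusted p = 0.0063 in limma) and for Tlr9 -1.82 (adjusted p = 0.018 in limma). The call for Tlr9 was lost without the 4-weeks libraries numbered 2, as given above. For Tlr5 the difference went from 1.68 to 0.02, with TR-AΦ means of 17.99 and 23.1 FPKM and monocyte means of 4.99 and 24.9. For Tlr1 it went from -1.99 to -3.55, and for Tlr9 from -3.45 to -5.27. The CD45.2 monocytes of 32-weeks also held more interstitial macrophage transcripts than those of 4-weeks, and their part in these interactions was not tested.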

How the results depend on the processing

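No call of a member changed direction under any alternative run, and the numbers of members called stayed within 1.5 times of the values given except as follows. For TR-AΦ at 32-weeks against 4-weeks, 1 member was called, and 0 with no filter, with TPM scaling, with only the groups compared and without the 4-weeks libraries numbered 2, and 0 to 1 when each library was left out. For CD45.2 monocytes over time, 5 were called, and 3 with only the groups compared, without the 4-weeks libraries numbered 2 and without the 2 libraries highest in interstitial macrophage transcripts, and 3 to 5 when each library was left out. The cause was not tested. At a threshold of 0.01 the 3 cell type comparisons called 8, 6 and 7 members. The share of all genes called is not set beside the counts in this paragraph, so they describe only how steady the member calls were. Leaving out libraries removes samples, and FPKM give no depth to weigh single values by.

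With a replicate block on the numbers in the labels, 3 members were called in TR-AΦ over time (Tlr2, Tlr9 and Cd14), 6 in monocytes over time and 4 in the interaction of cell type and time, or 5 with the block set by exposure. The calls over all genes under the block are not set beside these counts, so the counts are not read as particular to the receptors. Deviations of libraries with the same number and time point correlated by -0.09 to 0.21 over 102 pairs (median 0.02), with 8 above 0.1. Among 204 pairs with different numbers at the same time point, 2 were above 0.1. Pairing was taken only where every pair exceeded 0.1 or the labels named a source for the number, and neither held, so the results are given without the block. The same-number pairs also join FA with PM2.5 libraries, which come from different mice, so this check cannot decide whether the number marks the mouse. The number still went with some measures. Red cell markers were highest in the library numbered 2 in 8 of 8 groups at 32-weeks and lowest in it in 4 of 4 at 4-weeks, and AΦ markers were highest in it in 6 of 6 AΦ groups. What the number marks, and its part in the calls gained with the block, was not tested.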

Other observations

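The library number went with the level of 3 endosomal receptors. The library numbered 0 was the lowest of its group in 10 of 12 groups for Tlr7, 11 for Tlr8 and 11 for Tlr13, and the library numbered 2 was the highest in 11, 9 and 11. Of 13307 genes, 7.73% had the library numbered 0 lowest in 10 or more groups and 6.84% had the library numbered 2 highest in as many. Tlr11, which senses profilin, was listed at 0 in 4 of 6 TR-AΦ libraries at 32-weeks and held 0.373 to 1.501 FPKM in BM-AΦ. Tlr12 was listed at 0 in 5 of 6 TR-AΦ libraries at 32-weeks and held 0.0874 to 0.724 in BM-AΦ. Both were too low for the test.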
